A study of Homo sapiens with 23 samples.

Results

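Immediate-early and growth-factor response genes were followed through a time course of TRPS1 depletion in T47D breast cancer cells. The genes are 40 listed symbols, looked up by Ensembl identifier in GENCODE release 44 among the 60605 genes of the count table. All 40 were found, and all 40 passed the filter on low counts, which kept 26057 genes for testing. They were sorted by family into 9 AP-1 genes, 4 EGR and NR4A genes, 4 IER genes, 4 KLF genes, 5 DUSP genes, 3 ID genes, 5 ZFP36 and BTG genes and 6 other members.

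Immediate-early genes are transcribed within minutes of a growth factor, serum or stress signal, because the transcription factors at their promoters, among them SRF with its ELK partners and CREB, are already in place and are switched on by kinases such as ERK. Their first products are transcription factors of the AP-1, EGR, NR4A and KLF families. Other members then end the response: DUSP proteins remove phosphate from MAP kinases, and ZFP36 proteins mark mRNAs with AU-rich elements for decay.

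Nascent transcription was measured by PRO-seq, in which engaged RNA polymerases in permeabilized cells add a labeled nucleotide, so that reads count polymerases in the act of transcription. T47D is an estrogen receptor-positive luminal line, grown here with serum and insulin, and all groups came from 1 clone, Clone 28, in which a degron tag was placed on the endogenous TRPS1 gene, a GATA-type repressor, and the untagged copies were lost. Cells received dTAG, the ligands dTAG-13 and dTAGV-1 at 50 nM each, which lead to destruction of the tagged protein, for 0.5, 1, 2 or 4 h (4 libraries each) or for 24 h (3 libraries, replicates 2 to 4). The 4 control libraries came from the same clone after 24 h in 0.1% DMSO. Libraries with the same replicate number were harvested together, at a time of day that differed between numbers.

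Total counts per library ranged from 4408544 to 17571616, and the 1 h group was the shallowest by median (6940736.5, against 8519258.5 in DMSO). Luminal markers were high in every library, with ESR1 at 2243 to 2686 CPM (counts scaled to a common library total) and GATA3 at 912 to 1113 CPM. The basal keratins KRT5 and KRT14 had at most 3 and 6 counts. The summed CPM of the 4 basal markers was nonetheless 20.7 to 21.8 in DMSO and 23.9 to 34.8 over the dTAG libraries, and most of it came from TP63 (18.3 to 32.5 CPM over all libraries); its part in the results below was not tested. The TRPS1 protein cannot be followed in these counts.

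Promoters of 4 genes are printed here because the genes were called below or carry the clearest regulatory letters. Each is the stretch before the RefSeq start that no annotated exon covers (GRCh38.p14), read 5′ to 3′ in the direction of the gene. Capitals mark motif matches on either strand. The CRE is TGACGTCA, at which CREB and ATF proteins bind, and its shorter form is TGACG. The motif of GATA factors was searched as AGATAA or TGATAA, and its forms that end in G were left out. The TATA box is TATAAA, and the CArG box is the site at which SRF binds.
JUN promoter, chr1:58784049-58784269, minus strand: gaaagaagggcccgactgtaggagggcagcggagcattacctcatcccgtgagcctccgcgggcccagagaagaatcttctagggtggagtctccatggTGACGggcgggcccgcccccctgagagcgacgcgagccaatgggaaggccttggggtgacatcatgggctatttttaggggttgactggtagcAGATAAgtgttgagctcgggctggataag
ZFP36L1 promoter, chr14:68796254-68796493, minus strand: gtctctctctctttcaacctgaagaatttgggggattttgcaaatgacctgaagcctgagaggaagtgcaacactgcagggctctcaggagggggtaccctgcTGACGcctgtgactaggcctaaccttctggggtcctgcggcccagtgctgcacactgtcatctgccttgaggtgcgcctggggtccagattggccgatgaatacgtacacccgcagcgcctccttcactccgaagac
EGR1 promoter, chr5:138465229-138465478, plus strand: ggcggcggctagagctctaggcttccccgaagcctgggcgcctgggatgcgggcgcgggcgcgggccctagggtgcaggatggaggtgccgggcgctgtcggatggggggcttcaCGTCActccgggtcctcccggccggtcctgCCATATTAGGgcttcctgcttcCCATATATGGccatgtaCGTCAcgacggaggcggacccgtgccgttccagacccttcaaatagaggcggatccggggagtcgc
DUSP1 promoter, chr5:172771196-172771445, minus strand: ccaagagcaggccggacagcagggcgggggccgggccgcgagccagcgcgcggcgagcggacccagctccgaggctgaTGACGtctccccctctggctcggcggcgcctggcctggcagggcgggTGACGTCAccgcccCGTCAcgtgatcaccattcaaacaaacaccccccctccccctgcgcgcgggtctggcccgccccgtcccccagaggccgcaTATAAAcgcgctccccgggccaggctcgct

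RefSeq promoters were available for 30 of the 40 genes, and the 250 bases before any start were searched. The short form TGACG stood in 19 of these 30 (63.3%), against 24.9% of 27305 genes, and every full CRE holds it. The full CRE was found before a start of JUND, MAFF, DUSP1 and ZFP36L1 (13.3%, against 2.03%). For ZFP36L1 this was the start at 68793416, not the one printed above, whose window holds only the short form. The CArG box was found for EGR1, EGR2 and SRF (10.0%, against 1.44%), and TATAAA for 7 genes (23.3%, against 3563 of all 27305). The GATA-type letters AGATAA or TGATAA stood before JUN, EGR2 and NR4A1 (10.0%, against 17.5%), and the forms of that motif that end in G were not counted. The AP-1 site, spelled TGACTCA or with the middle letters exchanged TGAGTCA, stood before none of the 30 (5.19% of all genes). These shares describe letters in a window and do not show binding.

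Without any added stimulus, most of these genes were already transcribed. Per kb of gene span, 34 of 40 lay above the median of the tested protein-coding genes in DMSO (0.867 CPM per kb) and 28 above the upper quartile (1.82). The highest levels were those of RHOB, a small GTPase (47.3 ± 3.59 CPM per kb, SD, n = 4), IER3, a survival factor (44.1 ± 3.83), and ID1 (38.8 ± 6.14). The lowest were FOSL1 (0.135 ± 0.0608), EGR2 (0.447 ± 0.0858) and KLF2 (0.475 ± 0.112). RHOB and IER3 did not differ beyond their spread, nor did EGR2 and KLF2. EGR1, a standard readout of ERK signaling, stood at 2.04 ± 0.346 CPM per kb, 27th in the order. The genes are short, from 1.233 to 55.444 kb with a median of 5.593 kb, against 27.484 kb for matched protein-coding genes, so that polymerases near the start weigh more in them.

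**Figure D1:**
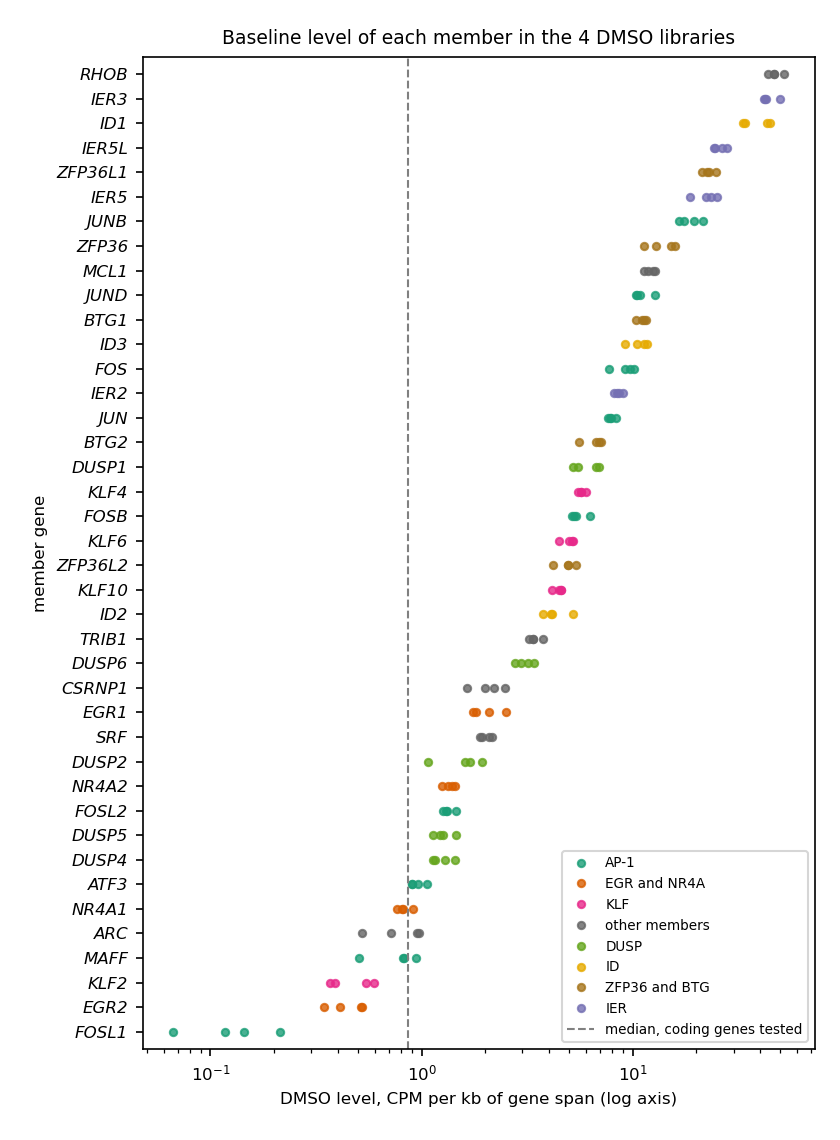
Level of each of the 40 genes in the 4 DMSO libraries, in CPM per kb of gene span on a log axis, 1 point per library, colored by family and ordered by the mean; the dashed line is the median of the tested protein-coding genes. RHOB, IER3 and ID1 stand highest and FOSL1 lowest, and 34 of 40 means lie to the right of the line.

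The question of the time course was whether these genes changed with dTAG, and at which time. The controls had 24 h of DMSO, so time since addition was matched only at 24 h. At 0.5 to 4 h, TRPS1 loss and recent addition to the dishes cannot be told apart, and their parts were not tested. At 1 h, 30 of 40 log2 fold changes against DMSO were negative, against 47.4% of all genes tested, with a median of -0.08 against 0.01 over all genes. The genes were chosen with earlier results of these data known, so such shares describe them and are no independent test of a fall. Only 1 gene, JUN, passed the test at FDR 0.1 (2.5% of the 40, background 1.25% of all genes). In either direction, 9 of 40 had an unadjusted p under 0.05 (9.42% of all genes did). With the replicate number as a block in the fit, 5 genes were called at 1 h, all lower: JUN, IER3, KLF10, DUSP5 and ZFP36 (12.5%, background 3.25%). The last 4 are named because of their values, since no rule chose them. Under the block 13 of 40 had an unadjusted p under 0.05, in either direction (13.4% of all genes). The 5 block calls depended on the libraries: without replicate 1, 2, 3 or 4 they numbered 6, 1, 2 and 0. ZFP36 was in the first 3 of these sets and DUSP5 in none. Calls with the block over all genes fell too in these runs, to 733, 380, 352 and 347, against 846 with all libraries. Protein-coding genes with spans under 10 kb also leaned lower at 1 h (median -0.03, 58.2% of 2642 negative). The share of all counts held by the 40 genes was 0.143% to 0.164% at 1 h and 0.155% to 0.177% in DMSO, which overlap.

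Only small numbers of members moved at the other times. At 0.5 h no member was called by edgeR (background 0.476%) or by DESeq2, and 4 of 40 had an unadjusted p under 0.05 (7.68% of all genes did). With the block, ZFP36L1 alone was called at 0.5 h (background 2.48%). At 2 h no member was called by either tool (background 0.733%), with 3 of 40 under an unadjusted p of 0.05 (7.1% of all genes), and with the block again ZFP36L1 alone (background 2.43%). At 4 h ZFP36L1 was called (1 of 40, background 0.833%), with 3 of 40 under an unadjusted p of 0.05 (7.47%). With the block KLF4, lower, and BTG1, higher, were called as well (3 of 40, background 2.49%). At 24 h no member was called by edgeR (background 0.863%), with 3 of 40 under an unadjusted p of 0.05 (7.38%), while DESeq2, and edgeR with the block (background 2.65%), called ZFP36L1. Over all 5 times in 1 F-test, JUN was called (1 of 40, background 2.71%), and with the block 7 genes were: JUN, IER3, KLF10, DUSP1, ZFP36, ZFP36L1 and BTG2 (17.5%, background 9.01%). Without the block JUN was not called in the F-test without replicate 3 or 4 (0 members), and the 7 became 8, 2, 4 and 2 without replicates 1 to 4. The matching F-test counts over all genes were not taken. The block calls of ZFP36L1 at 0.5 h and 2 h were lost without replicate 2, 3 or 4 (0 members). In these runs calls over all genes were 202, 108 and 157 at 0.5 h, against 645 with all libraries. At 2 h they were 271, 267 and 246, against 634.

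Counted by overlap alone, few members stood clear of DMSO. At 0.5 h DUSP6 and BTG1 lay above every DMSO library (2 of 40, background 2.58%), and at 2 h KLF4 and DUSP5 lay below every one (2 of 40, background 2.2%). At 4 h BTG1 lay above (1 of 40, background 2.51%) and KLF4 below (1 of 40, background 1.92%). At 24 h, with 3 libraries, KLF2, ZFP36L1 and BTG2 lay above (3 of 40, background 5.22%) and ATF3 below (1 of 40, background 4.27%). These are counts of 1 to 3 genes, and each share lay within 3 percentage points of its background.

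**Figure D2:**
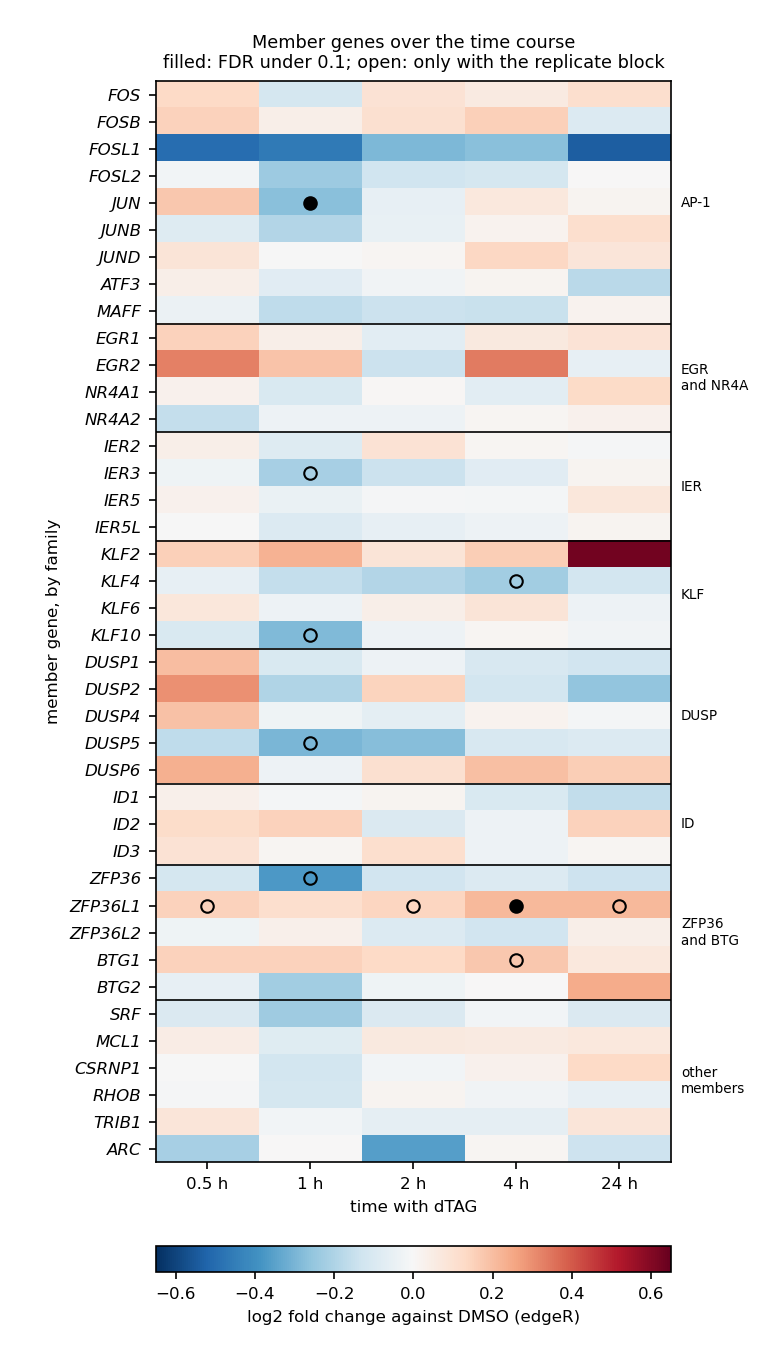
Log2 fold change against DMSO (color) of the 40 genes in rows, by family, at 0.5, 1, 2, 4 and 24 h of dTAG in columns; filled circles mark edgeR FDR under 0.1 and open circles calls made only with the replicate block. The 1 h column is blue in 30 of 40 rows, and JUN at 1 h and ZFP36L1 at 4 h carry the filled circles.

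The AP-1 family holds the FOS and JUN proteins, which pair to form the AP-1 factor, with ATF3 and MAFF as related bZIP proteins. On the log2 scale its median difference from DMSO was 0.04, -0.17, -0.05, 0.02 and 0.02 at the successive times. At 1 h 8 of 9 members were negative, and the median stayed between -0.21 and -0.11 under every alternative run. JUN (ENSG00000177606, hg38 chromosome 1, 58776845 to 58784048, minus strand) is the central AP-1 subunit and overlaps no annotated gene. It stood at 55.9, 56.5, 60.1 and 54.7 CPM in DMSO replicates 1 to 4, and at 67.0, 59.5, 62.7 and 67.9 CPM at 0.5 h. It stood at 39.9, 49.5, 50.2 and 48.4 CPM at 1 h. The 1 h libraries all lay below every DMSO library and every 0.5 h library, with replicate 1 the lowest.

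At 2 h JUN was at 59.6, 52.0, 51.5 and 56.1 CPM, at 4 h at 60.0, 56.6, 57.9 and 63.7 CPM, and at 24 h at 54.4, 60.1 and 57.9 CPM in replicates 2 to 4. All of these overlapped DMSO. The 1 h log2 fold change was -0.27 ± 0.07 (SE), a 0.83-fold level (edgeR adjusted p = 0.0695, with the block 0.033), lower in 4 of 4 same-numbered pairs. Without the block the call was lost on leaving out any 1 replicate number (adjusted p 0.201 to 0.371, log2 fold change -0.30 to -0.22), and with total counts as the only scaling. With the block it was lost without replicate 2, 3 or 4 (edgeR adjusted p 0.0708 to 0.161 over the runs without 1 replicate number). None of the 3 comparisons between times sets a group against DMSO. At 1 h against 0.5 h JUN was 0.45 ± 0.07 lower on the log2 scale (edgeR adjusted p = 0.0179, 1 of 40 members, background 0.023%). With all libraries it was also the 1 member called with the block (background 0.157%). With the block, 3 members were called without replicate 1 (JUN, IER3 and ZFP36) and 0 without replicate 4. From 1 h to 4 h JUN rose by 0.34 ± 0.07 (edgeR adjusted p = 0.0524, 1 of 40, background 0.249%), and to 24 h by 0.29 ± 0.07 (edgeR adjusted p = 0.0542). Without the block, the first of these calls was lost without replicate 2, 3 or 4, the second without any 1 replicate, and the third without replicate 2, 3 or 4, with 0 members called except for BTG2 at 24 h without replicate 2.

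The other AP-1 members did not pass the test against DMSO. FOSL2 also lay below every DMSO library at 1 h, at 28.5, 26.9, 29.1 and 28.4 CPM against 32.3, 36.4, 32.9 and 31.3 (log2 fold change -0.23 ± 0.08, edgeR adjusted p = 0.233, with the block 0.126). JUN, FOSL2 and IER3 were the 3 of 40 members with every 1 h library under every DMSO library (background 2.91%). JUNB was at -0.19 ± 0.09, MAFF at -0.17 ± 0.15, FOS at -0.11 ± 0.12 and ATF3 at -0.07 ± 0.10 on the log2 scale at 1 h. JUND (0.00 ± 0.11) and FOSB (0.04 ± 0.15) were near 0. FOSL1, at 3 to 19 counts per library, gave the largest negative estimate (-0.46 ± 0.34) with an error that allows little to be said. FOSB, JUNB, MAFF and FOSL2 overlap a gene on the opposite strand, and whether the counting used strand is not given in the sources used here.

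EGR1 and EGR2 are zinc finger factors downstream of ERK and SRF, and NR4A1 and NR4A2 are orphan nuclear receptors. The 4 genes had medians of 0.09, 0.00, -0.05, 0.04 and 0.06 at the successive times, and none was called in either edgeR fit at any time. NR4A1, the member with the most counts, was at 27.9, 33.3, 29.8 and 29.5 CPM in DMSO, 28.8, 31.9, 31.9 and 29.9 at 0.5 h, and 27.8, 26.2, 30.4 and 28.1 at 1 h. It was at 28.7, 34.3, 29.0 and 29.4 CPM at 2 h, 24.4, 27.3, 31.2 and 30.8 at 4 h, and 32.9, 35.1 and 30.3 at 24 h. The groups overlapped throughout, with a 1 h log2 fold change of -0.10 ± 0.08 (edgeR adjusted p = 0.826). EGR1 was at 0.15 ± 0.16 at 0.5 h and 0.04 ± 0.17 at 1 h on the log2 scale, and EGR2 at 0.33 ± 0.21 and 0.18 ± 0.22. EGR2 rested on 16 to 70 counts per library.

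The IER genes encode small early proteins of varied function. All 4 were negative at 1 h (median -0.09), after a median of 0.01 at 0.5 h. IER3 (chromosome 6, 30743199 to 30744548) fell under the block. It was at 56.2, 67.2, 56.9 and 57.7 CPM in DMSO and at 52.9, 52.2, 50.1 and 49.5 CPM at 1 h, without overlap. Its log2 fold change was -0.22 ± 0.08 (edgeR adjusted p = 0.339), and -0.22 ± 0.06 with the block (edgeR adjusted p = 0.0396). IER3 also overlaps opposite-strand genes, HCG20 among them. IER5, the member with the most counts, was at 78.3, 93.6, 105 and 98.4 CPM in DMSO, 87.2, 95.8, 98.6 and 102 at 0.5 h, and 93.7, 88.8, 93.6 and 88.6 at 1 h. Its later values were 91.1, 90.6, 96.9 and 94.7 CPM at 2 h, 75.7, 93.97, 98.2 and 103 at 4 h, and 104, 99.2 and 94.01 at 24 h. Replicate 1 was low in DMSO and at 4 h, and no group stood apart (1 h -0.04 ± 0.08, edgeR adjusted p = 0.972).

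KLF proteins are zinc finger factors with roles in growth arrest and differentiation. The family median was 0.01 at 0.5 h and -0.09 at 1 h, and then 0.00, 0.05 and -0.03. KLF10, a TGF-beta-induced repressor, fell under the block: it was at 31.9, 31.7, 31.1 and 28.7 CPM in DMSO and at 24.9, 24.1, 29.4 and 22.2 CPM at 1 h. Replicate 3 at 1 h lay above DMSO replicate 4, and each 1 h library lay below its same-numbered control. The log2 fold change was -0.29 ± 0.09 (edgeR adjusted p = 0.209), and -0.29 ± 0.07 with the block (edgeR adjusted p = 0.0269). With the block KLF10 also rose from 1 h to 4 h (0.30 ± 0.07, edgeR adjusted p = 0.0468), as did JUN and ZFP36 (3 of 40, background 1.26%), a count that was 0 without replicate 2 or 4 and 1 without replicate 3. The 1 h call of KLF10 with the block was lost without replicate 2 or 4 (adjusted p 0.186 and 0.217), and that of IER3 without replicate 2, 3 or 4 (0.14 to 0.329).

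KLF4 followed another course, at -0.06, -0.16, -0.19, -0.22 and -0.12 on the log2 scale at the successive times. Its 4 h libraries, at 27.9, 30.8, 27.6 and 24.4 CPM, all lay below DMSO at 32.2, 31.96, 31.1 and 33.96 CPM, and only the fit with the block called it (edgeR adjusted p = 0.086, without it 0.469), a call lost without replicate 2, 3 or 4, as was that of BTG1, leaving 1 member called. KLF6, the member with the most counts, was at 41.7, 48.1, 47.8 and 46.3 CPM in DMSO, 48.8, 50.8, 47.05 and 47.03 at 0.5 h, and 46.3, 45.5, 48.8 and 39.1 at 1 h. It was at 50.1, 49.2, 45.0 and 45.2 CPM at 2 h, 45.7, 53.4, 47.8 and 48.0 at 4 h, and 50.5, 42.8 and 41.8 at 24 h. These groups overlapped (1 h -0.03 ± 0.07, edgeR adjusted p = 0.984). KLF2, at 3 to 55 counts per library, gave 0.63 ± 0.30 at 24 h (edgeR adjusted p = 0.66).

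The DUSP phosphatases are the feedback arm of MAP kinase signaling, DUSP4 and DUSP6 acting on ERK among others. Their median went from 0.20 at 0.5 h to -0.10 at 1 h, and was -0.04, -0.10 and -0.09 at 2, 4 and 24 h. At 0.5 h DUSP1 (0.20 ± 0.12), DUSP2 (0.30 ± 0.27), DUSP4 (0.19 ± 0.10) and DUSP6 (0.23 ± 0.10) were positive and DUSP5 (-0.17 ± 0.11) negative on the log2 scale, and none passed the test in edgeR with or without the block. All 5 were negative at 1 h against DMSO and all 5 were negative at 1 h against 0.5 h (median -0.26). Of these only DUSP5 at 1 h against DMSO was called, and only with the block, and DUSP4 at 1 h against DMSO turned positive without replicate 1 or 2. The 4 h median rested on all 4 replicate numbers: it was -0.04 to -0.03 without any 1 of them, and with the block it reached 0.01 without replicate 2. With thinned libraries and the block the 24 h median was 0.01.

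DUSP5, a nuclear ERK phosphatase, was at 16.7, 19.9, 15.4 and 17.2 CPM in DMSO, 12.96, 15.5, 14.6 and 12.7 at 1 h and 14.8, 14.7, 13.9 and 13.5 at 2 h. The 2 h libraries lay below every DMSO library and the 1 h libraries overlapped by a narrow margin. At 1 h its log2 fold change was -0.30 ± 0.12 (edgeR adjusted p = 0.363, with the block 0.0935). DUSP4, the member with the most counts, was at 25.3, 22.6, 20.4 and 19.9 CPM in DMSO, 27.1, 26.7, 22.7 and 24.2 at 0.5 h, and 22.7, 19.6, 21.9 and 22.3 at 1 h. It was at 22.6, 23.5, 18.7 and 19.6 CPM at 2 h, 19.4, 23.4, 21.5 and 24.4 at 4 h, and 24.5, 19.9 and 21.2 at 24 h. Its 0.5 h libraries ran high and overlapped DMSO (1 h -0.03 ± 0.10, edgeR adjusted p = 1).

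ID proteins bind bHLH transcription factors and keep them off DNA, and they respond to BMP as well as serum. Their medians were 0.10, 0.01, 0.02, -0.03 and 0.01 at the successive times, and none was called at any time in either edgeR fit. ID1 was at 53.4, 55.3, 41.7 and 40.9 CPM in DMSO, 53.9, 64.8, 41.7 and 35.8 at 0.5 h, and 49.9, 57.7, 48.3 and 31.8 at 1 h. It was at 55.8, 59.4, 42.1 and 36.4 CPM at 2 h, 40.9, 63.1, 41.4 and 31.7 at 4 h, and 55.3, 42.4 and 30.7 at 24 h. In every one of the 6 groups replicate 2 was the highest and replicate 4 the lowest. The 1 h log2 fold change was -0.02 ± 0.23 (edgeR adjusted p = 1). ID2 and ID3 were likewise highest in replicate 2 in all 6 groups.

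ID1 was the clearest case of a difference between replicate numbers, that is between harvests. Its replicate means were 50.8, 60.1, 43.0 and 35.3 CPM, a range of 0.76 on the log2 scale against 0.15 between the time means (edgeR F-test over replicate numbers, adjusted p = 4.04e-08). Of the 40 genes, 24 differed between replicate numbers (60.0%, background 34.7%), FOSB, ID2 and DUSP2 among them, while JUN did not pass (adjusted p = 0.542). The count fell to 11 without replicate 2, and the matching count over all genes was not taken. Power in this F-test depends on read counts, and the background genes were not matched to the 40 for them. Over the 40 genes, the SD of the replicate means exceeded that of the time means in 57.5%, against 58.1% of all genes. These raw spreads include counting noise, which weighs more in genes with few counts. The 2 shares therefore do not show whether the 40 genes resemble the others in this.

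**Figure D3:**
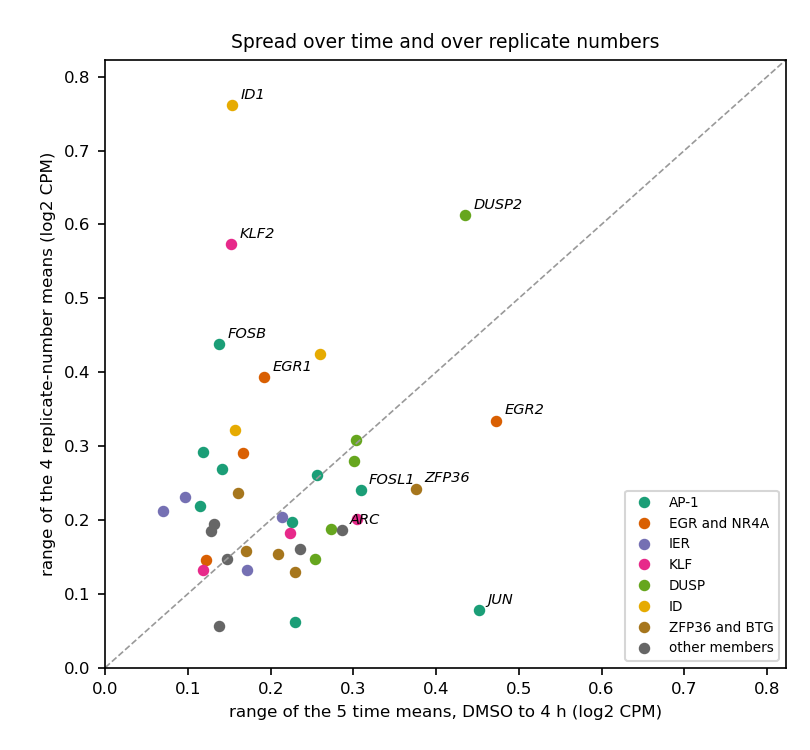
Range of the 4 replicate-number means (vertical) against range of the 5 time means from DMSO to 4 h (horizontal), both in log2 CPM, 1 point per gene, colored by family; the dashed line marks equality. ID1 lies far above the line (0.76 against 0.15) and JUN far below it (0.08 against 0.45).

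ZFP36 and its paralogs ZFP36L1 and ZFP36L2 promote decay of AU-rich mRNAs, and BTG1 and BTG2 are antiproliferative proteins that recruit deadenylases. The family median of -0.03, 0.03, -0.03, 0.00 and 0.07 hides members that went opposite ways. ZFP36 (chromosome 19, 39406847 to 39409412) was at 40.6, 38.8, 29.0 and 32.9 CPM in DMSO and 29.1, 29.9, 27.2 and 22.0 CPM at 1 h, lower in 4 of 4 pairs. The groups touched, since DMSO replicate 3 lay within the 1 h range. Its log2 fold change of -0.37 ± 0.10 missed the threshold (edgeR adjusted p = 0.102), and passed with the block (-0.36 ± 0.07, edgeR adjusted p = 0.00408) and in DESeq2 (adjusted p = 0.0461). The call with the block was lost without replicate 4 (-0.30, edgeR adjusted p = 0.106).

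ZFP36L1 (ENSG00000185650, chromosome 14, 68787660 to 68796253, minus strand), one of the most transcribed of the 40 genes, was higher with dTAG. It was at 212, 183, 192 and 197 CPM in DMSO, 228, 213, 208 and 221 at 0.5 h, and 224, 212, 202 and 208 at 1 h. It was at 221, 224, 208 and 212 CPM at 2 h, 250, 231, 208 and 219 at 4 h, and 232, 223 and 225 at 24 h. DMSO replicate 1 reached into the range of every dTAG group but that of 24 h, and each of the 19 same-numbered pairs was higher with dTAG. The pairs reuse the same DMSO libraries and so are not independent, and the share of all genes with such a pattern was not counted.

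At 4 h ZFP36L1 rose by 0.21 ± 0.05 on the log2 scale, 1.16-fold (edgeR adjusted p = 0.0961, with the block 0.00165). Without the block the call was lost on leaving out any 1 replicate number (adjusted p 0.117 to 0.654, log2 fold change 0.17 to 0.24). It was also lost with total counts as the only scaling (0.17, edgeR adjusted p = 0.291). With the block the call was kept without any 1 replicate number (edgeR adjusted p 0.00747 to 0.0774). DESeq2 without the block called it too (adjusted p = 0.018). The highest 4 h value, replicate 1, came from the library with the smallest total (4408544). Mitochondrial genes held 6.5% of that library, against a median of 2.78%, and its TMM factor was 0.858. The part of this library in the rise was not tested. With the block the log2 fold changes of ZFP36L1 were 0.15, 0.11, 0.14, 0.21 and 0.24 at the successive times, and all but that at 1 h were called. BTG1 rose under the block at 4 h (0.18 ± 0.05, edgeR adjusted p = 0.0803), from 61.2, 62.7, 64.2 and 57.7 CPM to 65.3, 72.9, 73.7 and 65.1, and it shares its strand with LINC01619, whose reads may be in its count.

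BTG2 was lowest at 1 h and highest at 24 h. It was at 22.9, 29.1, 27.4 and 28.3 CPM in DMSO, 24.9, 26.7, 22.3 and 18.3 at 1 h, and 32.1, 33.1 and 30.4 at 24 h. The 24 h libraries lay above all DMSO and all 1 h libraries. Neither time passed against DMSO (1 h -0.22 ± 0.10, edgeR adjusted p = 0.462; 24 h 0.24 ± 0.10, 0.562), and 24 h against 1 h did (0.46 ± 0.10, edgeR adjusted p = 0.0263). In that comparison 2 members, JUN and BTG2, were called (5.0%, background 2.08%), and with the block 9 were, all higher at 24 h (22.5%, background 6.64%). The BTG2 call was lost without replicate 3 or 4 (0 members called), and the 9 became 2 without replicate 2, 1 without replicate 3 and 2 without replicate 4.

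**Figure D4:**
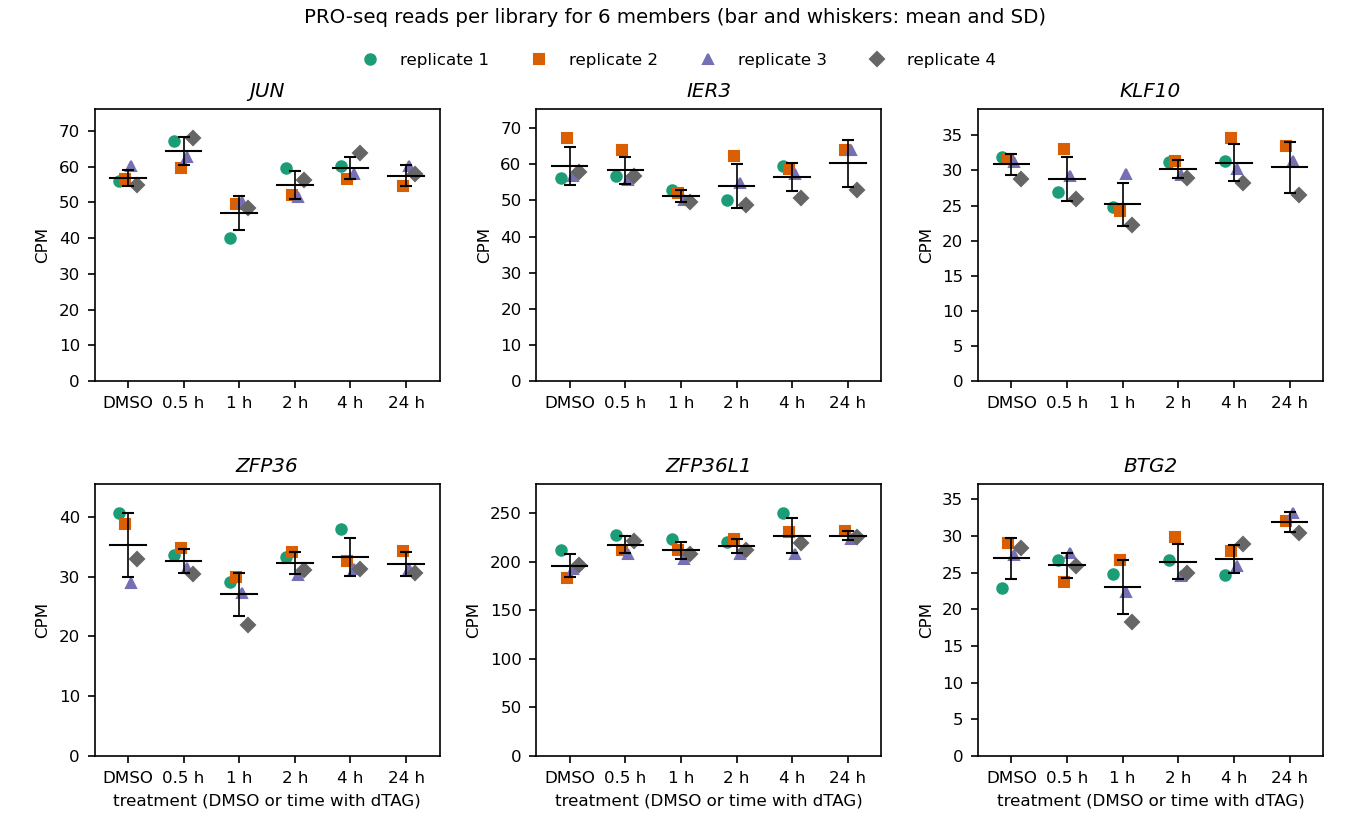
CPM of JUN, IER3, KLF10, ZFP36, ZFP36L1 and BTG2 in each library, by treatment, with the replicate number as symbol and color and the group mean and SD as bar and whiskers. JUN at 1 h (39.9 to 50.2) lies under all DMSO libraries (54.7 to 60.1), and ZFP36L1 is lowest on average in DMSO.

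The other members are SRF, which drives the immediate-early promoters themselves, MCL1, an antiapoptotic protein of short half-life, CSRNP1, RHOB, TRIB1 and ARC. Their medians were -0.01, -0.10, -0.04, 0.00 and 0.01, and none was called against DMSO in either fit. MCL1 was at 213, 239, 222 and 234 CPM in DMSO, 238, 235, 228 and 237 at 0.5 h, and 223, 208, 223 and 208 at 1 h. It was at 242, 254, 229 and 224 CPM at 2 h, 234, 245, 237 and 230 at 4 h, and 248, 236 and 229 at 24 h. The 1 h libraries lay below every 0.5 h and 4 h library and overlapped DMSO (1 h -0.08 ± 0.04, edgeR adjusted p = 0.676). SRF was at -0.23 ± 0.09 at 1 h (edgeR adjusted p = 0.395), CSRNP1 at -0.12 ± 0.11, RHOB at -0.12 ± 0.08, TRIB1 at -0.02 ± 0.10 and ARC at 0.00 ± 0.22.

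The family medians at 1 h were small. AP-1, IER, KLF, DUSP and the other members had negative medians (-0.17 to -0.09), and EGR and NR4A, ID and ZFP36 and BTG had medians from 0.00 to 0.03. The last 3 changed direction with the setting: EGR and NR4A ran from -0.05 to 0.04, ID from -0.09 without replicate 3 to 0.12 without replicate 4 (both with the block), and ZFP36 and BTG was -0.22 over the members that overlap no other gene. The 5 negative medians stayed negative in the settings run for them, but without replicate 4 IER shrank to -0.03 and KLF to -0.04, and without replicate 2 DUSP shrank to -0.06 and the other members to -0.05. Differences between families were not tested. From 0.5 h to 1 h 33 of 40 members were negative (median -0.11, against 49.8% of all genes negative), with 10 of 40 under an unadjusted p of 0.05 (5.18% of all genes). From 1 h to 4 h 8 of 40 were negative (median 0.09, against 47.7% of all genes negative), with 8 of 40 under an unadjusted p of 0.05 (7.18%). These comparisons share the 1 h libraries, so a low 1 h group enters each of them. Since the genes were chosen with earlier results of these data known, the shares are no independent test.

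**Figure D5:**
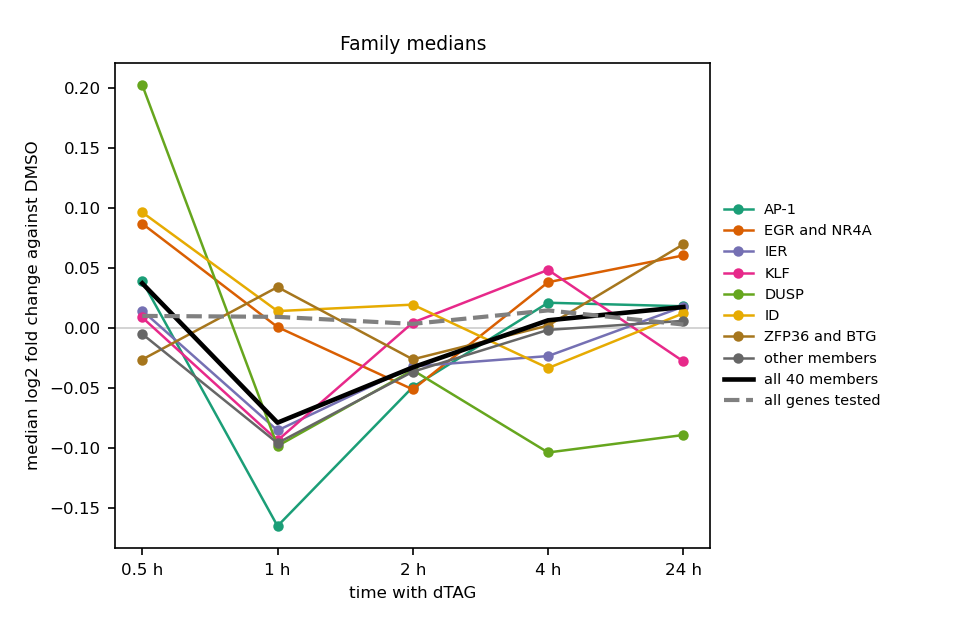
Median log2 fold change against DMSO of each family (colored lines), of all 40 genes (thick black) and of all genes tested (dashed grey) at 0.5, 1, 2, 4 and 24 h of dTAG. The 40-gene median dips to -0.08 at 1 h while the median of all genes stays at 0.01, and the DUSP median goes from 0.20 to -0.10 between 0.5 h and 1 h.

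Genes around this response were counted from 4 further lists, to be read against all genes tested, of which 1.25% were called at 1 h and 0.833% at 4 h, and with the block 3.25% and 2.49%. An unadjusted p under 0.05 was held by 9.42% of all genes at 1 h and 7.47% at 4 h, and with the block by 13.4% and 10.7%. Of 30 growth factor to ERK pathway genes, none was called at 1 h by edgeR (4 under an unadjusted p of 0.05) and 1 with the block. At 4 h IRS1, the adaptor of the insulin and IGF1 receptors, rose (0.21 ± 0.05, edgeR adjusted p = 0.0586), and with the block 2 genes of this list were called. Of 14 activators of immediate-early promoters, none was called at 1 h or 4 h in either fit, with 0 under an unadjusted p of 0.05 at both times without the block and 2 at both times with it. Of 15 ERK feedback and output genes, none was called at 1 h or 4 h without the block (3 and 5 under an unadjusted p of 0.05). With it 2 were called at 1 h, both lower, and 3 at 4 h, of which 2 were higher. Of 37 tested among 40 other immediate-early and stress-response genes, BATF, a bZIP partner of JUN proteins, rose at 1 h (0.51 ± 0.11, edgeR adjusted p = 0.0296) and 4 h (0.60 ± 0.11, edgeR adjusted p = 0.00689), and AMOTL2, which binds YAP at cell junctions, fell at 1 h (-0.15 ± 0.04, edgeR adjusted p = 0.0558). With the block 5 of the 37 were called at 1 h, 4 of them lower, and 3 at 4 h, of which 2 were higher. The median of that list at 1 h was -0.10.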

How the data were processed

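Per the study's methods, the authors trimmed adapters (cutadapt 1.8.1), collapsed duplicates by a molecular identifier, removed ribosomal DNA reads, aligned to hg38 (Bowtie2 2.4.4, SAMtools 1.9) and took per-gene totals with bedtools. The deposited values are raw counts per gene. The annotation and the use of strand are not given in the sources used here. Testing used edgeR 4.0.16 under R 4.3.3 (filterByExpr, TMM, glmQLFit and glmQLFTest) in 1 fit of all 23 libraries with two-sided p-values adjusted over 26057 genes by Benjamini-Hochberg, called under FDR 0.1. CPM used TMM-scaled totals. SE is the log2 fold change over the root of its F. DESeq2 1.42.0 was an alternative, and scripts were tested on simulated data.

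Harvests pair the libraries: deviations from group means correlated at a mean r of 0.313 for the same number and -0.0891 otherwise, with the lowest same-number pair at -0.0484. The block lowered the common dispersion from 0.0249 to 0.00489. All libraries are dishes of 1 clone, so p-values measure the spread between them. Libraries of a group differed by more than sampling noise (chi-square per degree of freedom 1.63 to 44.8). Members, families and lists were chosen with earlier results of these data known. Values per library are given for members called at 1 h and for the member with the most counts in each family, fold changes also for members called at another time, and list genes are named only where called at 1 h or 4 h without the block; further members are named where the block called them or their values are described.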

Additional observations from a re-analysis of the deposited data

Results flagged for a closer look

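In 4 of 85 groups of 4 libraries tested over the named members, 1 library stood apart from the other 3, and chance flags about 5%. JUNB at 0.5 h was lowest in replicate 1, at 29.8 CPM. NR4A1 at 2 h was highest in replicate 2, at 34.3 CPM. IER3 was highest in replicate 2 both in DMSO, at 67.2 CPM, and at 0.5 h, at 63.9 CPM. JUN and BTG2 differed between times by the edgeR test of the difference itself: JUN by -0.45 on the log2 scale for 1 h against 0.5 h, by 0.34 for 4 h against 1 h and by 0.29 for 24 h against 1 h, and BTG2 by 0.46 for 24 h against 1 h.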

How the results depend on the processing

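No called log2 fold change of a named member against DMSO changed sign under the alternatives run. The changes between times and those of the list genes were not checked for sign. Of 85 log2 fold changes of named members against DMSO, 33 changed sign under at least 1 alternative, none of them called in any setting (at most 0.165 in size), and so did 25 of 40 family medians (at most 0.104 in size). The number of members called at 1 h (1 without the block) was 5 with the replicate block, 2 with DESeq2, 5 with DESeq2 and the block, 3 with thinned libraries and the block, and 0 with total counts only, without the low-count filter, with only the 2 groups compared or with libraries thinned to 4408544 counts. At 4 h (1) it was 3 with the block, 3 with DESeq2 and the block, 2 thinned with the block, and 0 with total counts only, with median-of-ratios scaling, without the filter, with the 2 groups or thinning. At 0.5 h (0) it was 1 with the block and 2 with DESeq2 and the block, and at 2 h (0) 1 with either. At 24 h (0) it was 1 with the block, DESeq2, DESeq2 and the block, total counts, or thinning with the block. For 1 h against 0.5 h (1) it was 2 with DESeq2 and the block and 0 with the 2 groups or thinning. For 4 h against 1 h (1) it was 3 with the block, 4 with DESeq2 and the block, and 0 with total counts, no filter, the 2 groups, or thinning with or without the block. For 24 h against 1 h (2) it was 9 with the block, 9 with DESeq2 and the block and 0 with the 2 groups. Over any time (1) it was 7 with the block, 3 with DESeq2, 9 with DESeq2 and the block, 0 thinned and 3 thinned with the block.

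Leaving out 1 replicate number at a time, without the block and with it, gave 0 to 0 and 0 to 6 at 1 h, 0 to 0 and 1 to 3 at 4 h, 0 to 0 and 0 to 1 at 0.5 h, 0 to 0 and 0 to 2 at 2 h, 0 to 1 and 1 to 1 at 24 h, 0 to 1 and 0 to 3 for 1 h against 0.5 h, 0 to 0 and 0 to 4 for 4 h against 1 h, 0 to 2 and 1 to 9 for 24 h against 1 h, and 0 to 2 and 2 to 8 over any time. Members that differed between replicate numbers (24) ranged from 11 to 23. For the comparisons between times and the F-tests, calls over all genes in these runs were not counted.

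Of the family medians, thinning moved EGR and NR4A at 2 h to -0.138, KLF at 2 h to -0.124 (-0.127 with the block) and ZFP36 and BTG at 0.5 h to 0.0459 (0.0500 with the block). Members that overlap no other gene gave -0.224 at 1 h and 0.209 at 24 h for ZFP36 and BTG, and -0.0741 at 24 h for the other members. Leaving out 1 replicate number gave -0.102 to -0.00102 (with the block -0.104 to -0.00374) for IER at 2 h, -0.0386 to 0.0264 (-0.0305 to 0.0187) for ZFP36 and BTG at 0.5 h, -0.00092 to 0.106 (-0.0380 to 0.0919) for EGR and NR4A at 24 h, -0.147 to -0.0466 (-0.148 to -0.0487) for the other members at 1 h and -0.0401 to 0.0980 (-0.0496 to 0.0898) at 24 h. Thinning, DESeq2 with the block, the block without 1 replicate number and the members without overlaps were chosen after seeing the data. Over all genes, calls at 1 h ranged from 69 with the 2 groups to 846 with the block, against 325. Where a count went to 0 with fewer libraries or thinned counts, fewer data entered the test, and for the other settings the cause was not tested. The 1 h group was shallow, 24 h had 3 libraries, and FOSL1, KLF2, ARC, EGR2 and DUSP2 had low counts. What size of change these allow to be detected was not tested.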
